A study of Homo sapiens with 6 samples.

Results

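The Kruppel-like factors are a family of transcription factors, and 10 of their genes (KLF2, KLF3, KLF4, KLF5, KLF6, KLF9, KLF10, KLF11, KLF13 and KLF16) were followed in Huh7 cells labelled as UBE2S knockout. Members were taken by gene symbol: they are 10 of the 18 Kruppel-like factor genes among the 20289 genes of the count table, and all 10 were among the 13265 genes tested. The study compared 2 groups of Huh7, an established human hepatocellular carcinoma line: 3 libraries labelled UBE2S-KO and 3 labelled WT, in a search for factors controlled by UBE2S. The UBE2S protein conjugates ubiquitin and extends ubiquitin chains on substrates of the anaphase-promoting complex, the ligase that drives exit from mitosis. No treatment or time point is labelled for either group. The labels do not say how the knockout was made, whether the UBE2S-KO cells were 1 clone, or whether replicates were separate cultures, so the p-values rest on variation among these libraries alone, possibly technical.

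Kruppel-like factors bind GC-rich and CACCC-containing DNA through a block of 3 zinc fingers near the end of the protein, and differ in the part before it. KLF2, KLF4, KLF5 and KLF6 mostly recruit acetyltransferases and activate genes, although KLF4 also represses. KLF3 binds the corepressor CtBP. KLF9, KLF10, KLF11, KLF13 and KLF16 bind the corepressor SIN3 and mostly repress. In liver cells, members of the family are known for links to hormone signals, glucose and lipid metabolism and the response to transforming growth factor beta.

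The zinc finger block is the feature by which the family is defined, and its coding DNA shows how alike the members are whose mRNA levels are compared here. It is printed for KLF4, KLF5 and KLF11, the members that changed most, from GENCODE release 29 transcripts (GRCh38, 5′ to 3′ on the coding strand), with the codons of the zinc-binding cysteines and histidines in capitals. The KLF4 block spans chr9:107485757-107487100 on the minus strand, the KLF5 block chr13:73062722-73075877 on the plus strand and the KLF11 block chr2:10048523-10052396 on the plus strand, introns included.
KLF4: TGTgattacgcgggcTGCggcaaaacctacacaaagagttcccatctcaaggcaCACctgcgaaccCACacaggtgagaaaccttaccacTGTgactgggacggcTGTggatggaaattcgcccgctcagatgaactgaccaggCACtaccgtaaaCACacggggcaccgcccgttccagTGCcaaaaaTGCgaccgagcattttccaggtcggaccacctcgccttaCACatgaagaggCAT
KLF5: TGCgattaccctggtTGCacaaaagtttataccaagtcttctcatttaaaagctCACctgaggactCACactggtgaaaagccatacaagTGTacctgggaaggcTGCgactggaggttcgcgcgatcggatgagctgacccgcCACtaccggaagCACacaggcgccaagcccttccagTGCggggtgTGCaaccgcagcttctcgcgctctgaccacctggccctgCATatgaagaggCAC
KLF11: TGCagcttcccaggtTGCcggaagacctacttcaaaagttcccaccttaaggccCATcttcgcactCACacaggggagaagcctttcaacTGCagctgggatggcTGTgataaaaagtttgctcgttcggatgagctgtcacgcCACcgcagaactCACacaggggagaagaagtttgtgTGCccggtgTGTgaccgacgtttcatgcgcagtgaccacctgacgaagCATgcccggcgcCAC
Each of the 10 members had such a block of 243 bases, which aligned without gaps. Over the 45 pairs of members the identity of these bases was 55.1% to 78.6%, with a median of 65.4%. It was 70.0% between KLF4 and KLF5, 65.0% between KLF5 and KLF11 and 60.9% between KLF4 and KLF11. KLF2 and KLF4 formed the most alike pair (78.6%), followed by KLF10 with KLF11 and KLF13 with KLF16 (78.2% each). The block ended 1 codon before the stop in KLF2, KLF4 and KLF6, 2 codons before it in KLF5 and 3 in KLF3, whereas the SIN3-binding members KLF9, KLF10, KLF11, KLF13 and KLF16 had 19, 29, 36, 39 and 43 further codons. Between whole transcripts of different members, the longest identical stretch was 24 bases, and the deposited estimates of all 10 members were whole numbers in every library. GENCODE lists 7 processed pseudogenes derived from KLF2, KLF3 and KLF4, for which the table has no row.

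Libraries held 21840499 to 25840104 estimated counts in UBE2S-KO and 23300336 to 27910396 in WT, and a member had between 67 and 2258 counts in a library. UBE2S mRNA stood at 47.6, 45.4 and 44.2 CPM (counts scaled to a common library size, with factors from the trimmed mean of M-values, TMM) in UBE2S-KO, against 234, 220 and 216 CPM in WT. This gene matched the labels in every library and fell by 2.29, to 20.4% of WT (log2, SE 0.04, edgeR quasi-likelihood test with Benjamini-Hochberg adjustment, adjusted p = 1.6e-12). Replicate 1 of WT differed from the other WT libraries by chi-square values of 8.11 and 10.4 per degree of freedom, while the other two differed from each other by 1.79. Hepatocyte genes marked the cells as labelled: 8 markers summed to 27100 to 27500 CPM on total counts in UBE2S-KO and 29500 to 29800 in WT. They went both ways, with 2 higher and 6 lower (29.4% and 30.7% of all tested genes). FGB (log2 fold change 0.67) and APOA1 (0.40) rose, and TTR (-0.575), APOB (-0.36) and HNF4A (-0.25) fell most. Markers of other cell types also differed. The 7 stromal markers summed to 21.0 to 22.1 CPM in UBE2S-KO and 138 to 158 in WT, but went both ways: COL1A2 (0.338 CPM in UBE2S-KO, 139 CPM in WT) and LUM fell, whereas COL1A1 (log2 fold change 1.24), PDGFRB (0.96) and COL3A1 (0.41) rose. The 6 immune markers summed to 180 to 182 CPM in UBE2S-KO and 284 to 315 in WT, mostly LYZ, and the 3 that could be tested (LYZ, CD68 and CD14) fell. The 6 endothelial markers summed to 2.38 to 2.87 CPM in UBE2S-KO and 5.69 to 7.08 in WT, mostly PECAM1, the only one abundant enough to test, which fell (-1.46). The 6 cholangiocyte markers summed to 297 to 303 CPM in UBE2S-KO and 332 to 351 in WT and also went both ways: SOX9 (-0.42) and EPCAM (-0.34) fell, SPP1 (2.62) rose, and KRT19 and CFTR did not pass. Among these lists the endothelial receptor gene KDR and the T cell gene CD3E had 0 counts in every library, and the pan-leukocyte gene PTPRC had 0 to 8. The part of these differences in the results was not tested.

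The family did not move as a block: KLF4 and KLF5 fell to less than 40% of their WT level, KLF11 rose 2.33-fold, and the other members had log2 fold changes between -0.27 and 0.20. At an edgeR adjusted p under 0.05, KLF4, KLF5, KLF13 and KLF16 were lower, KLF6, KLF10 and KLF11 higher, and KLF2, KLF3 and KLF9 did not pass. These are 7 of 10 members, against 60.1% of all tested genes, with 29.4% higher and 30.7% lower, so the share called was near that of the background. The 3 members with an absolute log2 fold change of at least 1 stand against 6.14% of tested genes that were called with such a change. The median log2 fold change was 0.02 over the members and -0.00057 over all tested genes, and the median absolute value was 0.217 over the members and 0.225 over all tested genes. Over the alternatives, 6 of 10 members (DESeq2, which called 44.6% of genes) to 8 of 10 (among others without WT replicate 1, where 63.4% of genes were called) passed. Values of UBE2S-KO and WT did not overlap for 9 members, all but KLF2, against 65.8% of tested genes.

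**Figure D1:**
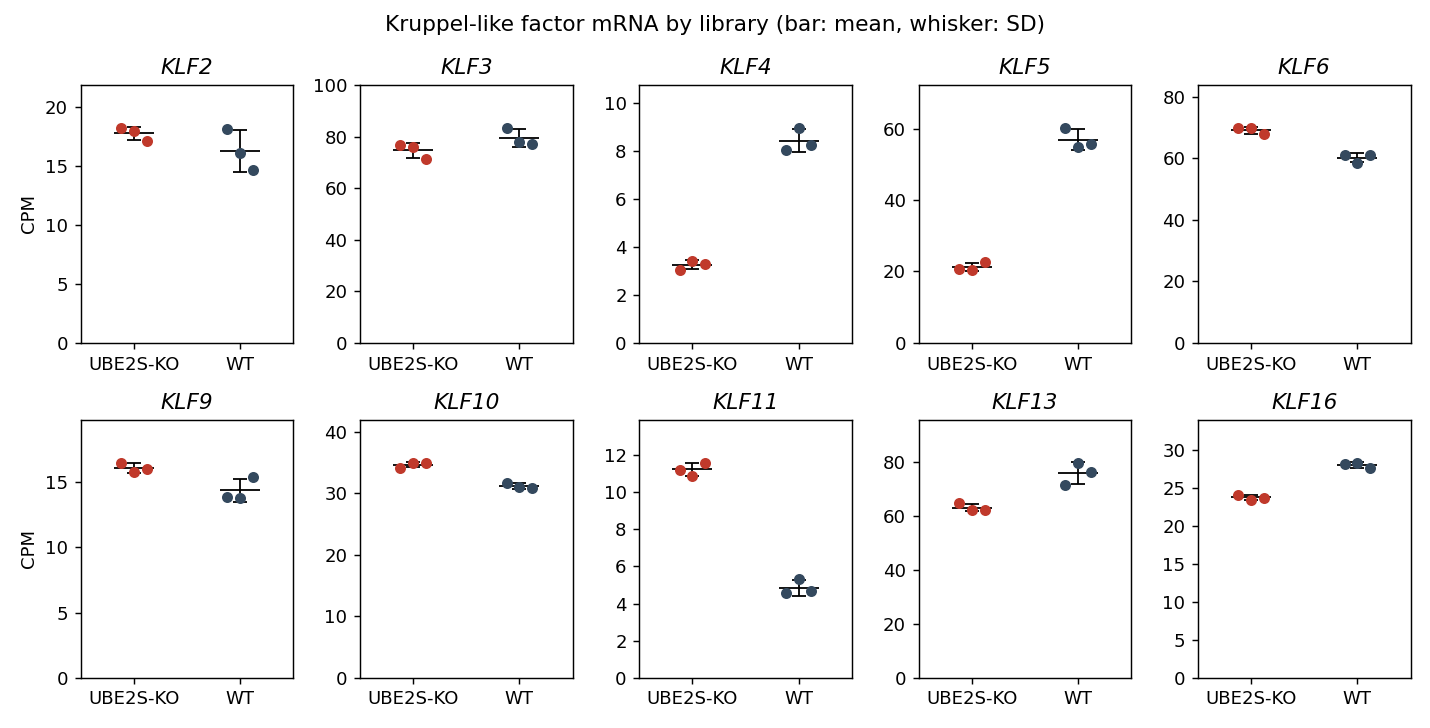
CPM of each member in every library, with UBE2S-KO left of WT; points are libraries, horizontal bars means and whiskers SDs (n = 3 each). KLF4 and KLF5 sit far lower and KLF11 far higher in UBE2S-KO, while the 2 groups overlap for KLF2.

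Among the activating members, KLF5, which promotes proliferation of epithelial progenitors such as those of intestinal crypts, had 456, 479 and 588 counts in UBE2S-KO, against 1629, 1278 and 1564 in WT. On the CPM scale these were 20.7, 20.5 and 22.7 in UBE2S-KO and 60.2, 54.8 and 55.8 in WT. All UBE2S-KO libraries lay far below all WT libraries. KLF5 fell by 1.42 on the log2 scale (95% interval -1.54 to -1.30, SE 0.06, edgeR adjusted p = 7.7e-10), to 37.4% of WT, and 3.06% of tested genes had a larger absolute change. With each library left out in turn, its log2 fold change was -1.47 to -1.38. KLF5 (ENSG00000102554) lies on chromosome 13, from 73054976 to 73077542 on the plus strand in GRCh38.

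KLF4, one of the reprogramming factors used to make pluripotent stem cells and a factor of epithelial differentiation, had the fewest counts of the members in UBE2S-KO. Its libraries had 67, 80 and 85 counts in UBE2S-KO and 218, 209 and 231 in WT, or 3.05, 3.42 and 3.28 CPM in UBE2S-KO and 8.06, 8.96 and 8.24 CPM in WT. The groups were well apart in every library. KLF4 fell by 1.37 on the log2 scale (95% interval -1.59 to -1.15, SE 0.10, edgeR adjusted p = 1.9e-07), to 38.7% of WT, and was -1.40 to -1.33 with each library left out in turn. The intervals of KLF4 and KLF5 overlapped, and so did the groups in the ratio of the pair: the ratio of KLF5 to KLF4 counts was 6.81, 5.99 and 6.92 in UBE2S-KO and 7.47, 6.11 and 6.77 in WT. KLF4 (ENSG00000136826) lies on chromosome 9, from 107484852 to 107490482 on the minus strand.

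KLF6, an early-response gene studied as a tumour suppressor in liver cancer, had 69.8, 69.9 and 67.8 CPM in UBE2S-KO and 61.0, 58.6 and 61.2 CPM in WT. Every UBE2S-KO value was above every WT value. It rose by 0.20 on the log2 scale (95% interval 0.12 to 0.28, SE 0.04, edgeR adjusted p = 0.00048), a change that 54.5% of tested genes exceeded. KLF2, which is induced by blood flow in endothelium and keeps T cells quiescent, had 18.2, 17.9 and 17.1 CPM in UBE2S-KO and 18.1, 16.1 and 14.6 CPM in WT. The groups overlapped, because WT replicate 1 lay within the UBE2S-KO range. Its log2 fold change was 0.12 (95% interval -0.04 to 0.29, edgeR adjusted p = 0.19). Without WT replicate 1 it was 0.21 (edgeR adjusted p = 0.012, where the 15 alternatives with a test ranged from 0.012 to 0.62), and 8 members were then called.

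The CtBP-binding member KLF3, a repressor best known from red blood cells, B cells and fat cells in mouse, was not called. Its values were 76.8, 76.1 and 71.6 CPM in UBE2S-KO and 83.5, 78.1 and 77.2 CPM in WT. They did not overlap, yet lay close together: the log2 fold change was -0.09 (95% interval -0.18 to 0.002, edgeR adjusted p = 0.084).

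The SIN3-binding members went both ways. KLF11, which is induced early by transforming growth factor beta and is mutated in a form of inherited diabetes, had 246, 256 and 301 counts in UBE2S-KO, against 123, 124 and 131 in WT. Its levels were 11.2, 10.9 and 11.6 CPM in UBE2S-KO and 4.55, 5.32 and 4.67 CPM in WT, with no overlap. It rose by 1.22 on the log2 scale, 2.33-fold (95% interval of the log2 value 1.03 to 1.41, SE 0.09, edgeR adjusted p = 1.4e-07), and 4.23% of tested genes had a larger absolute change. With each library left out in turn, the log2 fold change was 1.18 to 1.29. KLF11 (ENSG00000172059) lies on chromosome 2, from 10042849 to 10054836 on the plus strand, where an annotated antisense gene overlaps it. Antisense genes also overlap KLF3 and KLF16, and reads of such partners cannot be told apart here. A processed pseudogene overlaps KLF13 on the same strand, and the count table has no row for it.

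KLF10, the close relative of KLF11 and likewise an early gene of transforming growth factor beta signalling, had a smaller fold change. It had 34.2, 35.0 and 34.9 CPM in UBE2S-KO and 31.7, 31.0 and 30.8 CPM in WT. Those libraries did not overlap, and KLF10 rose by 0.15 on the log2 scale (95% interval 0.06 to 0.25, SE 0.04, edgeR adjusted p = 0.009). This call was lost with DESeq2 (adjusted p = 0.063, where the 15 alternatives with a test ranged from 0.004 to 0.063). The ratio of KLF11 to KLF10 counts was 0.327, 0.313 and 0.333 in UBE2S-KO and 0.143, 0.172 and 0.152 in WT, without overlap.

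KLF13, first studied as an activator of the chemokine gene CCL5 in T cells, had 64.7, 62.3 and 62.3 CPM in UBE2S-KO and 71.6, 79.8 and 76.4 CPM in WT. The groups did not overlap, and WT varied more (SD 4.13 CPM) than UBE2S-KO (SD 1.37 CPM). KLF13 fell by 0.27 on the log2 scale (95% interval -0.36 to -0.17, SE 0.04, edgeR adjusted p = 0.00018). KLF16, which was described as a regulator of dopamine receptor genes in mouse, had 24.1, 23.4 and 23.7 CPM in UBE2S-KO and 28.1, 28.3 and 27.6 CPM in WT. The groups did not overlap, and each was tight (SD 0.36 CPM in both). KLF16 fell by 0.24 (95% interval -0.34 to -0.13, SE 0.05, edgeR adjusted p = 0.00096).

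KLF9, a gene induced by glucocorticoid and thyroid hormone, had 16.5, 15.8 and 16 CPM in UBE2S-KO and 13.9, 13.8 and 15.4 CPM in WT. The UBE2S-KO values were all higher, the nearest by a small margin to WT replicate 3. Its log2 fold change was 0.16 (95% interval 0.02 to 0.30) and just missed the threshold (edgeR adjusted p = 0.052). With RLE size factors it passed (edgeR adjusted p = 0.047), and over the 15 alternatives with a test the adjusted p ranged from 0.020 to 0.21.

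Chromosome neighbours of several members had shifted too, so each member was also set beside the median log2 fold change of the 25 tested genes on each side of it, fewer near chromosome ends (a value without a test). KLF4 (neighbour median 0.01), KLF11 (0.02) and KLF13 (0.03) lay among neighbours with almost no common shift, as did KLF10 (0.02) and, less closely, KLF3 (0.07) and KLF9 (-0.10). KLF5 lay in a lowered stretch, with a neighbour median of -0.29, and stood at -1.12 once that was subtracted. The next tested gene along the chromosome, at a start 631 kb away, was KLF12, another CtBP-binding member of the family, whose log2 fold change of -0.29 equalled its neighbour median of -0.29. KLF6 lay in a lowered stretch on chromosome 10 (median of 33 neighbours -0.30), against which its log2 difference was 0.50 in place of 0.20. KLF16, in a lowered stretch of chromosome 19 (median -0.42), changed sign to 0.19 when the neighbours were subtracted. Its neighbours REXO1 (log2 fold change -0.35, SE 0.04), ABHD17A (-0.77, SE 0.08) and SCAMP4 (-0.27, SE 0.04) fell. KLF2, elsewhere on chromosome 19, lay among raised neighbours (median 0.24) and also changed sign, to -0.11 relative to them.

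**Figure D2:**
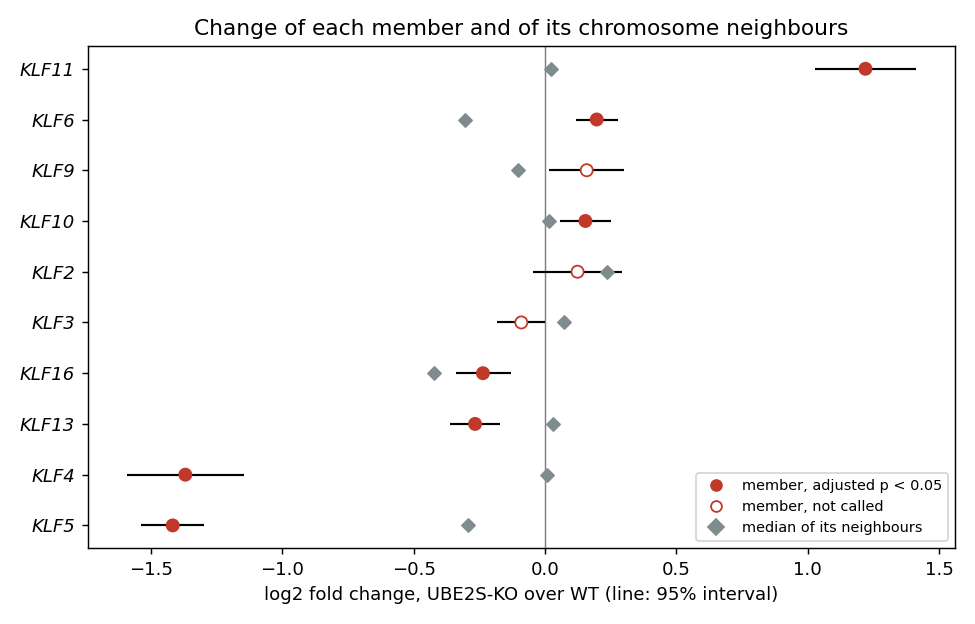
Log2 fold change of each member, UBE2S-KO over WT (circles, filled where the edgeR adjusted p is under 0.05; lines are 95% intervals), and the median of its neighbouring tested genes (diamonds). KLF11, KLF4 and KLF5 lie far from their neighbours, and KLF16 lies above neighbours that are lower still.

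Scaled by length, as CPM per kilobase of annotated exon, the order of the members differed between the groups. In UBE2S-KO it was KLF3, KLF6, KLF13, KLF2, KLF10, KLF16, KLF5, KLF9, KLF11 and KLF4, from 12.5 ± 0.47 for KLF3 to 1.11 ± 0.06 CPM per kb for KLF4 (mean ± SD, n = 3). In WT it was KLF5, KLF3, KLF13, KLF6, KLF16, KLF2, KLF10, KLF4, KLF9 and KLF11, from 15.2 ± 0.77 for KLF5 to 1.13 ± 0.10 CPM per kb for KLF11. Neighbours in these orders did not overlap in their library values, except KLF2 with KLF10 in both groups and KLF4 with KLF9 in WT. KLF5 thus ranked 7 in UBE2S-KO and 1 in WT, at 5.68 ± 0.32 CPM per kb in UBE2S-KO and 15.2 ± 0.77 CPM per kb in WT. Its first place in WT depended on the length scaling. In CPM alone, KLF5 (56.9) lay below KLF3 (79.6), KLF13 (75.9) and KLF6 (60.3) in WT. The length counts all annotated exons, and which of them these cells use was not tested. KLF4 and KLF11 exchanged the lowest place. Of the summed length-scaled level of the 10 members, KLF5 made up 7.98% ± 0.52 in UBE2S-KO and 18.6% ± 0.63 in WT, and KLF11 3.68% ± 0.14 in UBE2S-KO and 1.38% ± 0.13 in WT. The sum itself was 72.0, 71.2 and 70.5 CPM per kb in UBE2S-KO and 83.5, 81.3 and 80.2 CPM per kb in WT, lower in every UBE2S-KO library. The members within this sum went both ways, and the difference of KLF5 was the largest, so the lower sum was not a fall of all members. In bulk RNA, fewer cells with a transcript and less of it per cell cannot be told apart.

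**Figure D3:**
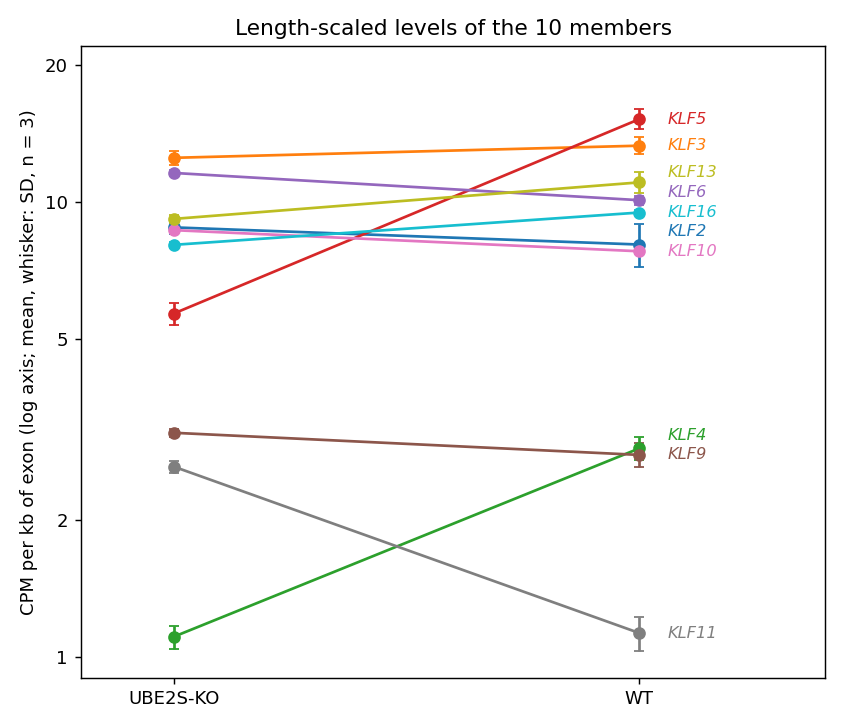
Length-scaled level of each member in UBE2S-KO (left) and WT (right), in CPM per kb of exon on a log axis; points are means and whiskers SDs (n = 3). KLF5 is the highest in WT and ranks 7 in UBE2S-KO, and the lines of KLF4 and KLF11 cross at the low end.

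Promoter windows of 8 members were found in the RefSeq table (GRCh38.p14), 10 windows in all. The 250 bases before the start are printed for KLF4, KLF13 and KLF16, the members that fell and whose GC-rich window lies outside annotated exons (that of KLF5 overlaps one), because the family binds the GC box and the CACCC box and its genes are known to regulate one another. Capitals mark matches on either strand to GGGCGG, the GC box, and to CACCC, the other box, and matches may overlap. The windows are chr9:107489770-107490019 on the minus strand for KLF4, chr15:31326585-31326834 on the plus strand for KLF13 and chr19:1863580-1863829 on the minus strand for KLF16. The RefSeq start used for KLF4 lies inside the gene as GENCODE places it, up to 107490482, and so does its window.
KLF4: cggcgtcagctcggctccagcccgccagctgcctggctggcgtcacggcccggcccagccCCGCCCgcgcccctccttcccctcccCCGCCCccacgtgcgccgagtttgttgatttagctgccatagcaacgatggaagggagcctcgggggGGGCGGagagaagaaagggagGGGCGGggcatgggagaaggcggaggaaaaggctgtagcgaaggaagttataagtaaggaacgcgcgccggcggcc
KLF13: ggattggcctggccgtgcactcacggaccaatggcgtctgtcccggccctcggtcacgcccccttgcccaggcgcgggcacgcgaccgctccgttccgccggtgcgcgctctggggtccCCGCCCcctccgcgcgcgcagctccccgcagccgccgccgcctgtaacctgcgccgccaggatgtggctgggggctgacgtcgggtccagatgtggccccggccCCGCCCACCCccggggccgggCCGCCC
KLF16: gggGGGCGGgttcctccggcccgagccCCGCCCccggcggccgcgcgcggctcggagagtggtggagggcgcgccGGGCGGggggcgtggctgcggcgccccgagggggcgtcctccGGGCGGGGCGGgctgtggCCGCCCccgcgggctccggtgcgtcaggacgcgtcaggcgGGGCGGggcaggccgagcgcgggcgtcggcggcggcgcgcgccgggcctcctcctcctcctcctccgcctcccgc
The GC box matched at 4 places in the KLF4 window, 3 in the KLF13 window and 7 in the KLF16 window, and the CACCC box at 1 place, in KLF13. KLF11, which rose, had 2 and 6 GC box matches in its windows, and KLF6, which also rose, had 2. KLF5 had 2 at its GC-rich start, where the CACCC box also matched at 2 places, and no GC box match at a start farther upstream. KLF2, which did not pass, had 4 GC box matches, and KLF9 had no match to either box. Over 35116 promoter windows of the same length, 42.6% held the GC box and 54.7% the CACCC box at least at 1 place. The GC box matched at 5 or more places in 4.15% of them. G and C made up 69.2% of the KLF4 window, 78.8% of the KLF13 window and 86.4% of the KLF16 window. The windows were not compared with others of like composition. Matches occurred before members of both directions.

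Of 8 other Kruppel-like factor genes, 3 were abundant enough to be tested. All 3 were called, where 60.1% of all tested genes were called. KLF15, known in liver for glucose and amino acid metabolism, had 10.5, 10.3 and 10.2 CPM in UBE2S-KO and 17.0, 16.1 and 12.9 CPM in WT, and fell (log2 fold change -0.57, SE 0.10, edgeR adjusted p = 0.00027). KLF12 fell to 23.6 ± 0.79 CPM in UBE2S-KO, against 28.9 ± 0.85 CPM in WT, and KLF7, a factor of neuronal differentiation, rose to 21.9 ± 0.47 CPM in UBE2S-KO, against 17.9 ± 0.09 CPM in WT (SD, n = 3 each; log2 fold changes -0.29 and 0.29). KLF14 had 5, 11 and 7 counts in UBE2S-KO and 6, 2 and 1 in WT, too few to test. KLF17 had 0 or 1 count in each library, and KLF1, KLF8 and KLF18 had 0 counts in every library. Of the related SP factors, which bind the same GC boxes, 3 of 7 tested rose (29.4% of all tested genes did), with a median of 0.13: SP8 (log2 fold change 0.32, SE 0.09), SP2 (0.29, SE 0.06) and the widely expressed SP1 (0.13, SE 0.03), while SP3 to SP5 and SP9 did not pass. With the neighbour medians subtracted, SP8 was at 0.12 and SP1 at 0.06.

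Partner and regulator genes were read from the same fit, in which 29.4% of all tested genes were higher, 30.7% lower and 60.1% called either way. Corepressor genes rose at 6 of 10 and fell at 3 (median log2 fold change 0.25): SIN3A (0.41, SE 0.03), SAP30 (0.36, SE 0.06) and CTBP1 (0.34, SE 0.03) rose, whereas HDAC1 (-0.50, SE 0.05), CTBP2 (-0.37, SE 0.06) and the demethylase gene KDM1A (-0.15, SE 0.03) fell. The 2 CtBP genes thus moved in opposite directions. Several lay in shifted stretches: with the neighbour medians subtracted, SIN3A was at 0.15, SAP30 and CTBP1 at 0.13 each, HDAC1 at -0.25 and CTBP2 at -0.77, and KDM1A changed sign, to 0.10. Among the 4 acetyltransferase coactivators, EP300 fell (-0.37, SE 0.04) and CREBBP rose (0.13, SE 0.05, edgeR adjusted p = 0.038), and the median of the 4 was -0.04. For CREBBP the groups overlapped, with 120, 119 and 118 CPM in UBE2S-KO and 119, 104 and 101 CPM in WT. EP300 was at -0.115 with its neighbour median subtracted.

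Enzymes reported to add ubiquitin to Kruppel-like factor proteins or remove it rose at 7 of 12 genes and fell at 3, against 29.4% and 30.7% of all tested genes, with a median log2 fold change of 0.12. BTRC (0.55, SE 0.05), FBXW7 (0.44, SE 0.06) and VHL (0.29, SE 0.03) rose; BTRC and VHL belong to ligases that act on KLF4, and FBXW7 to one that acts on KLF5. SMURF1 (-0.35, SE 0.04), WWP1, a ligase for KLF5 (-0.33, SE 0.04), and TRIM25 (-0.12, SE 0.04) fell. With the neighbour median subtracted, BTRC was at 0.21, FBXW7 at 0.07, SMURF1 at -0.09 and TRIM25 at -0.21. Upstream regulators rose at 9 of 14 genes and fell at 3, against the same 29.4% and 30.7% of all tested genes, with a median of 0.17. MEF2C, of the MEF2 factors that induce KLF2 and KLF4 (0.70, SE 0.09), SMAD3 (0.51, SE 0.03) and the kinase gene MAP2K5 (0.49, SE 0.07) rose. The hormone receptor genes THRB (-0.56, SE 0.04) and NR3C1 (-0.29, SE 0.05) and the receptor gene TGFBR2 (-0.44, SE 0.03) fell. SMAD3 was at 0.27 and MAP2K5 at 0.22 with the neighbour medians subtracted.

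Genes reported as bound or regulated by a Kruppel-like factor in some tissue or species fell at 7 of 11 tested and did not pass at the other 4, with a median log2 fold change of -0.28. Over all tested genes 30.7% were lower and 60.1% were called in either direction, so the share called was near the background. LGALS3, which encodes galectin-3 and is repressed by Klf3 in mouse, had 20.8 CPM in UBE2S-KO and 55.8 CPM in WT (-1.42, SE 0.06, edgeR adjusted p = 1.6e-09). S1PR1, a target of Klf2 in mouse T cells, had few counts, 12, 7 and 10 in UBE2S-KO and 24, 27 and 25 in WT, and fell (-1.25, SE 0.30, edgeR adjusted p = 0.0031). Immediate-early genes, a class that includes KLF6 and KLF10, were split, with 4 of 12 higher and 4 lower (29.4% and 30.7% of all tested genes; median 0.13). DUSP1 (0.72, SE 0.04), ATF3 (0.37, SE 0.06) and IER2 (0.17, SE 0.05) rose, and ZFP36 (-1.08, SE 0.14), FOS (-0.91, SE 0.27) and EGR1 (-0.74, SE 0.11) fell. With the neighbour medians subtracted, ZFP36 was at -0.65, and IER2 changed sign, to -0.03.

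The genes with the profile most like that of KLF11 over the 6 libraries, among the 10605 genes that averaged 5 CPM or more, were SPSB4, SOAT2, CLDN2 and MYLK3. Their centred log2 CPM differed from those of KLF11 by a root mean square of 0.022 (SPSB4) to 0.043 (CLDN2 and MYLK3), and their log2 fold changes were 1.15 to 1.25. For KLF5 they were PLA2G4A, the complement gene C3, TMTC2 and ZNF585A, at a root mean square of 0.053 to 0.068 and log2 fold changes from -1.59 to -1.44. The 6 libraries form 2 groups, so a like profile here is mainly a like difference between them.

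**Figure D4:**
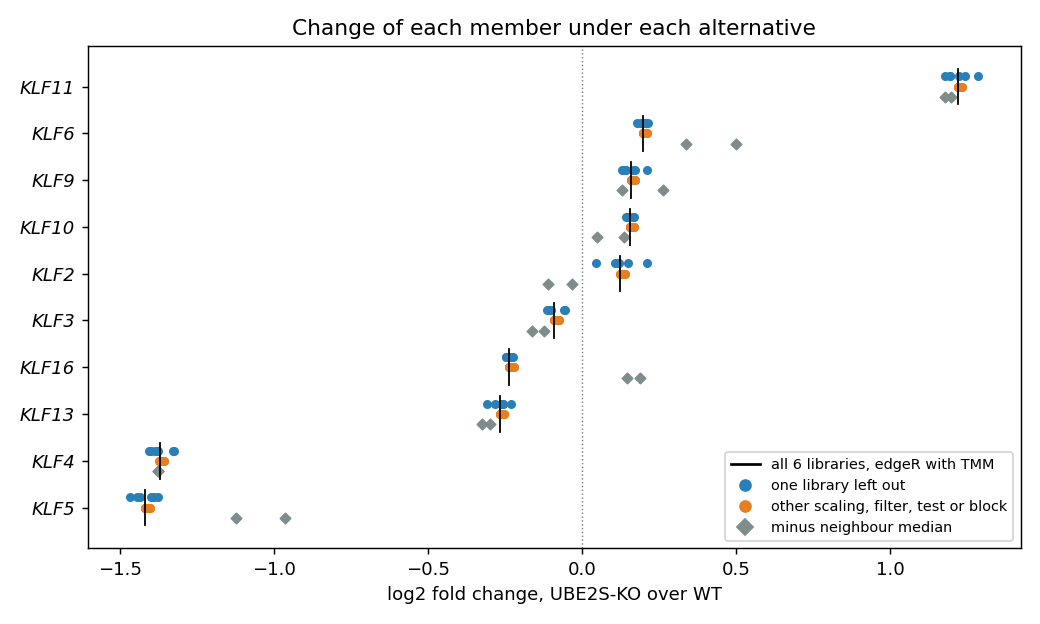
Log2 fold change of each member, UBE2S-KO over WT, with all libraries (black line), with each library left out (blue), under other scalings, filters, tests or the block (orange) and minus the median of 25 or 10 neighbours on each side (grey diamonds). KLF4, KLF5 and KLF11 stay beyond the other 7 members in every alternative shown. KLF16 and KLF2 change sign when the neighbours are subtracted.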

How the data were processed

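Gene expression was read from 6 Huh7 libraries, 3 UBE2S-KO and 3 WT, grouped and numbered by their titles. Per the labels' protocols, poly(A) RNA was enriched on oligo(dT) beads and made into libraries with a NEBNext Ultra kit; the submitters' processing notes name Bowtie2 2.2.8, HISAT2, StringTie 1.3.1 and DESeq2, with no role for each. Not given in the sources used here are the build, annotation and strand setting, so reads of a gene and its antisense partner (GENCODE lists such partners for KLF3, KLF11 and KLF16) cannot be told apart. The authors deposited expected counts (estimated counts per gene, by the column names and by values that are not all whole), not normalized, with 2670 to 2835 values per library that were not whole. They were rounded to whole numbers.

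Genes were kept by filterByExpr (minimum count 10), scaled by TMM and tested in edgeR 4.0.16 (R 4.3.3) by quasi-likelihood F tests of UBE2S-KO against WT, with Benjamini-Hochberg adjustment over all 13265 tested genes and a threshold of 0.05. SEs were derived from the log2 fold change and its F statistic, and 95% intervals from the SE and the fitted degrees of freedom. The test was tried on simulated data. Exon lengths came from the GENCODE release 29 basic annotation and positions from its primary assembly annotation (GRCh38), matched by identifier for 99.4% of genes. The members and gene lists were chosen with earlier results of these data known, so lists are described by counts and medians alone. Named list genes are up to 3 called genes per direction with the largest change, of which 1 is not reported here; others (KDR, CD3E, PTPRC, KRT19, CFTR, SP3 to SP5, SP9, KLF1, KLF8, KLF14, KLF17, KLF18) are named to complete a list or show its markers at or near 0, and REXO1, ABHD17A and SCAMP4, for their position beside KLF16, after their values were seen. Likeness of profiles was the root mean square difference of centred log2(CPM + 0.5). Alternatives were other scalings, filters and thresholds, DESeq2 1.42.0, limma-voom (limma 3.58.1), leaving out each library, the replicate number as a block, and subtraction of neighbour medians (10 per side was added after seeing the data).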

Additional observations from a re-analysis of the deposited data

How the results depend on the processing

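KLF4, KLF5, KLF11, KLF13, KLF16 and KLF6 kept their direction and call in all 15 alternatives with a test, which gave 6 to 8 called members, against 7, and 6472 to 8457 called genes, against 7975. Leaving out each library in turn gave 7 to 8 members and log2 fold changes of 0.045 to 0.211 for KLF2 (called without WT replicate 1) and 0.131 to 0.211 for KLF9 (called without WT replicate 3, edgeR adjusted p = 0.020). KLF9 was also called with RLE size factors (0.163), upper-quartile scaling (0.173), total counts alone (0.172) and a filter of at least 1 CPM in at least 3 libraries (0.161), and KLF10 was not called with DESeq2 (0.157). The cause of these shifts was not tested. Subtracting the median of 25 neighbours on each side reversed KLF16, to 0.188, and KLF2, which was not called, to -0.112. It gave -0.163 for KLF3, -1.124 for KLF5, 0.50 for KLF6 and 0.262 for KLF9. With 10 on each side, added after seeing the data, the values were 0.146 for KLF16, -0.033 for KLF2, -0.964 for KLF5, 0.338 for KLF6, 0.048 for KLF10 and -2.391 for UBE2S. Same-numbered UBE2S-KO and WT libraries did not deviate together (correlations of -0.0041, -0.019 and -0.010). With so few libraries, these values cannot exclude a pairing by number. With the replicate block 7 members and 7913 genes were called. KLF4 and KLF11 had the fewest counts of the members, 67 to 301 a library, and the largest SEs (0.10 and 0.09).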
